A study of Rattus norvegicus with 6 samples.

Results

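The transcripts of 10 histone demethylases of the Jumonji C (JmjC) family were followed in spinal cord tissue of rats with spared nerve injury (SNI) and of sham rats. *Jmjd1c*, the gene that the study carried forward, was taken with *Kdm3a*, *Kdm3b*, *Kdm2a*, *Kdm4a*, *Kdm4b*, *Kdm4c*, *Kdm6b*, *Kdm7a* and *Phf8*. The members were chosen with earlier results of these data known. They were matched by gene symbol alone, 1 row of the expression table each, and make up 10 of its 22050 genes. All 10 passed the filter on low counts, which kept 14426 genes for testing.

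JmjC demethylases are dioxygenases that remove methyl groups from lysines of histone tails, using iron, oxygen and 2-oxoglutarate. The subfamilies differ in the lysine they act on. KDM3 enzymes act on mono- and dimethylated H3K9, a mark of silent chromatin, KDM4 enzymes on trimethylated H3K9 and on H3K36, KDM2 enzymes mainly on H3K36, KDM7 enzymes on H3K9, H3K27 and H4K20, and KDM6 enzymes on H3K27. Removal of methyl groups from H3K9 or H3K27 is generally associated with gene activity, and *Kdm6b* is known as a gene induced in activated macrophages and microglia.

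RNA was sequenced in 3 libraries of SNI-NP rats (NP, neuropathic pain) and 3 libraries of Sham rats. The sciatic nerve of SNI-NP rats was injured in its branches except the sural nerve, and Sham rats had the surgery without the injury. The animals were healthy male Sprague-Dawley rats of 8 to 10 weeks, and each library was labelled as a replicate of its own. Whether a library holds tissue of a single animal or of several is not stated, and below a rat stands for a library. The time between surgery and tissue collection and the segment of cord sequenced are not given in the labels. The comparison asks whether the lower level of *Jmjd1c* in SNI-NP rats was particular to that gene or shared with related enzymes. The study chose *Jmjd1c* on these same libraries together with H3K27ac ChIP-seq and qPCR, so its own difference here is not independent evidence.

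The libraries held between 16670760 and 18151156 counts and were scaled to CPM, the usual depth-scaled count, with TMM factors. At 0 counts, levels up to 0.165 to 0.18 CPM remained possible from counting error alone. Markers of spinal cord cells were present in every library, among them *Rbfox3* of neurons at 17.1 to 36.6 CPM, *Gfap* of astrocytes at 332.3 to 863 CPM and *Mbp* of oligodendrocytes at 25760 to 34303 CPM. Markers of peripheral nerve were also high. The 7 genes of Schwann cells and peripheral myelin took between 7.49% and 11.4% of the counts. The 10 markers of dorsal root ganglion neurons summed to 642 to 1360 CPM in the Sham rats and to 219, 1979 and 1393 CPM in SNI-NP replicates 1, 2 and 3. Of these 10 markers, 0 differed between the groups at an unadjusted p under 0.05 by edgeR. The part of this peripheral tissue in the results below was not tested, apart from 1 fit with a covariate. That covariate was the mean log2 CPM of the 10 ganglion markers in each library.

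*Jmjd1c* (ENSRNOG00000000648) encodes a KDM3 enzyme of H3K9 and was lower in the SNI-NP rats. It was at 43.0, 46.9 and 40.3 CPM in Sham and at 38.1, 16.7 and 26.1 CPM in SNI-NP, from counts of 716, 833 and 693 and of 662, 301 and 451. The groups did not overlap, but SNI-NP replicate 1 lay close to the lowest Sham rat and replicate 2 far below the other libraries. Relative to the Sham mean, the 3 SNI-NP rats stood at 87.7%, 38.5% and 60.2%. The mean was 43.4 ± 3.32 CPM in Sham and 26.98 ± 10.7 CPM in SNI-NP (SD, n = 3 per group). On the log2 scale the fold change was -0.69 (SE 0.27, 95% interval -1.32 to -0.05). By edgeR's quasi-likelihood test the unadjusted p was 0.0369 and the adjusted p over all genes tested 0.444, so the difference did not pass the adjusted threshold. In RNA of whole tissue, fewer cells of a type and less RNA per cell cannot be told apart. Without SNI-NP replicate 2 the log2 fold change was -0.43 and the unadjusted edgeR p 0.0522, while without SNI-NP replicate 1 it was -1.02. With the mean log2 CPM of the ganglion markers as a covariate, a fit chosen after seeing the data, it was -0.87.

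**Figure D1:**
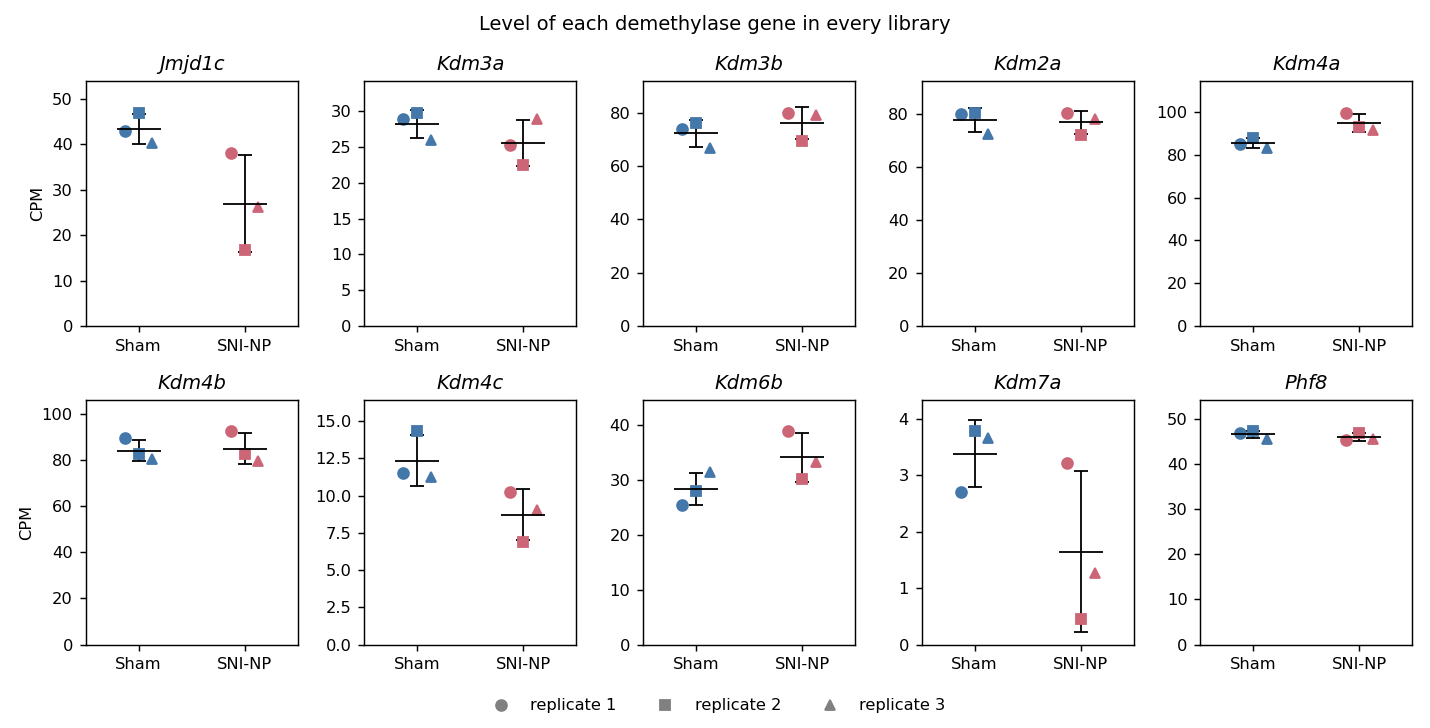
Level in CPM of each of the 10 demethylase genes in every library, with Sham and SNI-NP on the x axis and 1 point per library. The mean is a line and the SD is shown as bars (n = 3 per group). For *Jmjd1c* the Sham points lie between 40.3 and 46.9 CPM and the SNI-NP points between 16.7 and 38.1 CPM, and *Kdm4c* is the only other gene of the 10 with all SNI-NP points below all Sham points.

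The promoters of 3 members are shown because these genes separated the groups in opposite directions. *Jmjd1c* and *Kdm4c* were lower in all 3 SNI-NP rats and *Kdm4a* was higher. Each sequence runs from 250 bases before to 50 bases after a transcription start in RefSeq (build GRCr8), in which all 10 members were found. The expression table is based on another release, whose start sites were not compared. Capitals mark GGGCGG or its reverse complement CCGCCC, the GC box that zinc finger factors of the Sp and KLF families can bind.

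*Jmjd1c*, chr20:21461668-21461967, minus strand: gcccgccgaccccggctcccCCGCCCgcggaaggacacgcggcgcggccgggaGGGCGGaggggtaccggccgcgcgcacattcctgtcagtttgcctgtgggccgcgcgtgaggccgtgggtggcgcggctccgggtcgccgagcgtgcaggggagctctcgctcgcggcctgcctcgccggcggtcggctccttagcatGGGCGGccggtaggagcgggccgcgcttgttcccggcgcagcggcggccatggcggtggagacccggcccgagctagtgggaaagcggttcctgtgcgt
*Kdm4c*, chr5:93146787-93147086, plus strand: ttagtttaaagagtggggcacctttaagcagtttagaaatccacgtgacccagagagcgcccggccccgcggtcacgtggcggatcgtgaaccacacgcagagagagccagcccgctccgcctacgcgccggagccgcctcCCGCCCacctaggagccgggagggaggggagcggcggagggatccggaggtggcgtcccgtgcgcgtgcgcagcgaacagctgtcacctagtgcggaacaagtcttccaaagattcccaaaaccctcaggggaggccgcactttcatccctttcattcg
*Kdm4a*, chr5:137004863-137005162, minus strand: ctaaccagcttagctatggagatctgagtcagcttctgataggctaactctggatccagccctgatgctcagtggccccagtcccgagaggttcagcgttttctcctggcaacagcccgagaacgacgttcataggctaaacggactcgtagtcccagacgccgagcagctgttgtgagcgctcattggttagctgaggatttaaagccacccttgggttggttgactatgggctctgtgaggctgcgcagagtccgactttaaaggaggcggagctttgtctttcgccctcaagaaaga

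The *Jmjd1c* window was rich in CpG, with a GC content of 77.0% and 47 CpG dinucleotides, more than in 98.7% of the 33469 promoters of this length. It held 3 GC boxes, counted on both strands. The *Kdm4c* window had a GC content of 63.7%, 29 CpG and 1 GC box, and the *Kdm4a* window 54.0%, 14 CpG and no GC box. Over all promoters the median GC content was 51.7%, the median number of CpG was 7 and 33.1% held at least 1 GC box. The short core CACCC of KLF sites was matched 1 time in *Jmjd1c*, 1 time in *Kdm4a* and not in *Kdm4c*, against 54.9% of promoters with a match on either strand. ACGTG, 1 form of the core of hypoxia response elements, was matched 4 times in *Kdm4c*, against 19.3% of promoters with a match. These were 2 copies of CACGTG that each read ACGTG on both strands. The other windows had no match to ACGTG, and other forms of this core were not searched. These matches describe the letters of the windows and not sites in use.

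*Kdm3a*, a KDM3 demethylase of H3K9 and a known hypoxia target, was at 28.9, 29.7 and 26.0 CPM in Sham and at 25.3, 22.5 and 28.9 CPM in SNI-NP. The groups overlapped, with SNI-NP replicate 3 as high as Sham replicate 1. Its log2 fold change was -0.14 (SE 0.13, 95% interval -0.45 to 0.17, edgeR adjusted p = 0.701). *Kdm3b*, the third H3K9 enzyme of the subfamily, was at 73.8, 76.1 and 66.6 CPM in Sham and at 79.8, 69.3 and 79.2 CPM in SNI-NP. These groups overlapped as well, and the log2 fold change was 0.08 (SE 0.11, 95% interval -0.17 to 0.32, edgeR adjusted p = 0.802).

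Levels of the 3 KDM3 genes were compared on the FPKM scale, which divides by the length of the gene. *Jmjd1c* made up 22.1%, 23.1% and 22.8% of their summed FPKM in Sham and 20.0%, 11.1% and 14.1% in SNI-NP. The share was thus lower in every SNI-NP rat, and nearly constant over the Sham rats. Its mean was 22.7% ± 0.507 in Sham and 15.1% ± 4.50 in SNI-NP (SD, n = 3 per group, two-sided exact permutation p = 0.1, the smallest that 3 against 3 allows). The share of *Kdm3b* was 48.6% ± 0.311 in Sham and 56.3% ± 2.89 in SNI-NP (SD, n = 3 per group, exact permutation p = 0.1), and that of *Kdm3a* 28.7% in both (exact permutation p = 1). The sum of the 3 genes was 23.3 ± 2.0 FPKM in Sham and 20.6 ± 2.17 FPKM in SNI-NP (SD, n = 3 per group, exact permutation p = 0.3). Shares of a sum are tied to each other, so a lower share of 1 gene raises those of the others.

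**Figure D2:**
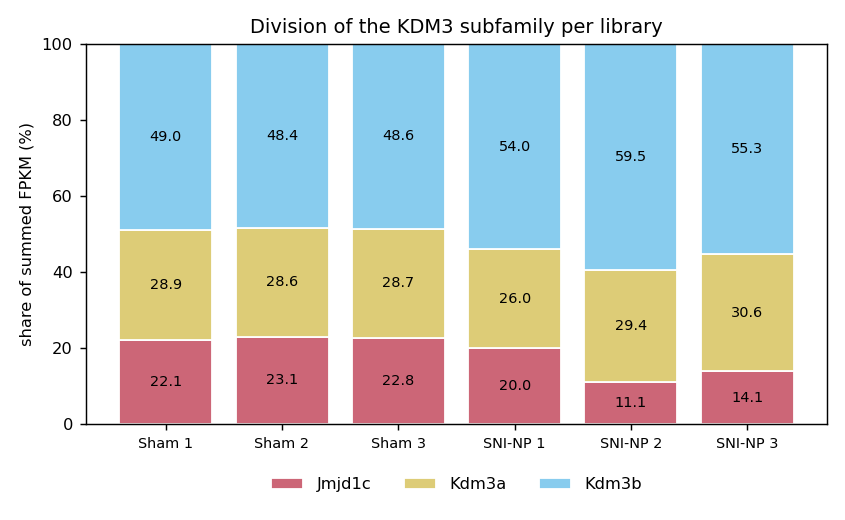
Share of *Jmjd1c*, *Kdm3a* and *Kdm3b* in the summed FPKM of the 3 genes (y axis, percent), 1 stacked bar for each of the 6 libraries. The *Jmjd1c* part is 22.1% to 23.1% in the Sham rats and 20.0%, 11.1% and 14.1% in SNI-NP replicates 1, 2 and 3.

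Among the KDM4 genes, 1 was lower and the other two did not pass the test. *Kdm4c* (ENSRNOG00000006644) was at 11.5, 14.3 and 11.2 CPM in Sham and at 10.2, 6.89 and 9.04 CPM in SNI-NP, from counts of 192, 254 and 193 and of 178, 124 and 156. The groups did not overlap, and SNI-NP replicate 2 was again the lowest library. The mean was 12.4 ± 1.70 CPM in Sham and 8.72 ± 1.70 CPM in SNI-NP (SD, n = 3 per group), and the log2 fold change -0.50 (SE 0.20, 95% interval -0.97 to -0.03, edgeR unadjusted p = 0.0388, adjusted p = 0.445). The length that count and FPKM imply for *Kdm4c* ranged from 2261 to 3107 bases between libraries, 1.37 times, whereas that of *Jmjd1c* ranged from 8356 to 8382 bases. On the FPKM scale the log2 fold change of *Kdm4c* was -0.70. In the edgeR fit it ranged from -0.63 to -0.36 with 1 library left out and missed the unadjusted edgeR threshold without Sham replicate 2 (-0.38), SNI-NP replicate 2 (-0.36) or SNI-NP replicate 3 (-0.57), and with the replicate block (-0.51).

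*Kdm4a*, which acts on the same marks as *Kdm4c*, was at 85.2, 87.9 and 83.3 CPM in Sham and at 99.6, 93.2 and 91.6 CPM in SNI-NP. All 3 SNI-NP rats lay above all 3 Sham rats, by a small margin, with a log2 fold change of 0.15 (SE 0.09, 95% interval -0.06 to 0.36, edgeR adjusted p = 0.551). *Kdm4b* was at 89.3, 82.4 and 80.6 CPM in Sham and at 92.4, 82.4 and 79.6 CPM in SNI-NP. Its groups covered nearly the same range, and the log2 fold change was 0.01 (SE 0.10, 95% interval -0.23 to 0.25, edgeR adjusted p = 0.975).

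*Kdm7a*, a KDM7 enzyme of H3K9 and H3K27, was the least abundant member, with a mean of 1.32 FPKM in Sham. It was at 2.70, 3.77 and 3.67 CPM in Sham and at 3.22, 0.444 and 1.28 CPM in SNI-NP, from counts of 45, 67 and 63 and of 56, 8 and 22. SNI-NP replicate 1 lay within the Sham range and the other two SNI-NP rats below it, at 13.1% and 37.7% of the Sham mean. The log2 fold change was -1.04 but its error was wide (SE 0.61, 95% interval -2.46 to 0.38, edgeR adjusted p = 0.542). It was -1.97 without SNI-NP replicate 1, past the unadjusted edgeR threshold.

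*Phf8* is a KDM7 enzyme as well and had the narrowest relative range of the 10 members. It was at 47.0, 47.3 and 45.8 CPM in Sham and at 45.5, 47.0 and 45.7 CPM in SNI-NP, with a log2 fold change of -0.02 (SE 0.09, 95% interval -0.23 to 0.19, edgeR adjusted p = 0.951). *Kdm2a*, a CpG island-binding enzyme of H3K36, was at 80.2, 80.4 and 72.5 CPM in Sham and at 80.4, 72.1 and 78.0 CPM in SNI-NP. The groups overlapped and the log2 fold change of *Kdm2a* was -0.02 (SE 0.10, 95% interval -0.24 to 0.21, edgeR adjusted p = 0.962). For both *Kdm2a* and *Phf8* the sign turned with offsets for gene length, where the values were 0.20 and 0.17.

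*Kdm6b*, the H3K27 demethylase induced in activated myeloid cells, was at 25.5, 28.0 and 31.4 CPM in Sham and at 38.8, 30.1 and 33.3 CPM in SNI-NP. SNI-NP replicate 2 lay within the Sham range and the other two above it. The log2 fold change was 0.27 (SE 0.14, 95% interval -0.06 to 0.59, edgeR adjusted p = 0.506). The 8 markers of microglia summed to 303 to 427 CPM in Sham and 352 to 366 CPM in SNI-NP, and 0 of them passed the unadjusted threshold.

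At an unadjusted edgeR p under 0.05, 2 of the 10 members were lower in SNI-NP rats, *Jmjd1c* and *Kdm4c*, against 5.94% of all genes tested, and 0 were higher, against 4.91%. With Benjamini-Hochberg adjustment edgeR called 0 of the 10 members and 0% of the 14426 genes, whose smallest adjusted p was 0.116, while 1565 genes passed unadjusted and the DESeq2 Wald test called 210 genes after adjustment. In all 3 SNI-NP rats, 2 members were below all 3 Sham rats, where 8.15% of all genes tested were, and 1 member, *Kdm4a*, was above, where 10.4% of all genes were. The median log2 fold change was -0.02 over the 10 members and 0.01 over all genes tested. The members were too few, and chosen with results known, for a test of these counts against the background. *Jmjd1c* had a lower log2 fold change than most genes, with 6.32% of the genes tested below it, and *Kdm7a* and *Kdm4c* had 2.29% and 10.4% below them.

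**Figure D3:**
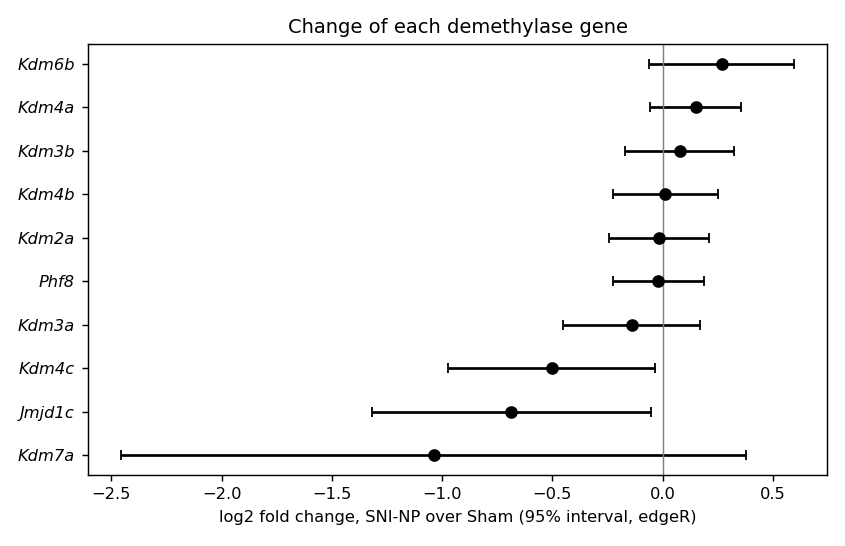
Log2 fold change of SNI-NP against Sham for each of the 10 members (x axis, log2 scale), with bars for the 95% interval of edgeR's quasi-likelihood fit on 3 libraries per group. The intervals of *Jmjd1c* (-1.32 to -0.05) and *Kdm4c* (-0.97 to -0.03) lie below 0, and those of the other 8 genes include 0.

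Whether the change of *Jmjd1c* differed from that of its relatives was tested on the ratio of *Jmjd1c* to each of the 9 other members within a library. The change of *Jmjd1c* was lower than that of *Kdm6b* by a log2 difference of -1.02 (95% interval -1.86 to -0.19) and than that of *Kdm4a* by -0.91 (95% interval -1.76 to -0.06). Both passed the unadjusted limma threshold of 0.05 and had an adjusted limma p of 0.156 over all genes. In that direction, with *Jmjd1c* the lower of the pair, the same test called 31.7% of the 14425 other genes at the unadjusted threshold, so that 2 of 9 members is no more than the background. For *Kdm3b* the difference was -0.84 (95% interval -1.68 to 0.005, limma adjusted p = 0.156), and for *Kdm4b*, *Kdm2a* and *Phf8* it was -0.77, -0.74 and -0.74, with limma adjusted p-values of 0.164, 0.168 and 0.173. For these 6 genes the ratio was lower in every SNI-NP rat than in every Sham rat. The two-sided exact permutation p was 0.1 each, the smallest possible, and 0.15 adjusted over the 9 ratios. *Jmjd1c* itself separated the groups, and the share of all genes tested whose ratio separated likewise was not computed. This count is therefore not read as a result about the 6 genes.

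For the remaining 3 members the ratios of the groups overlapped. Against *Kdm3a* the difference was -0.62 (95% interval -1.46 to 0.23, limma adjusted p = 0.22, exact permutation p = 0.2), since the ratio in SNI-NP replicate 1 lay within the Sham range. Against *Kdm4c* it was -0.25 (95% interval -1.07 to 0.57, limma adjusted p = 0.579, exact permutation p = 0.3). Against *Kdm7a* it was 0.57 in the other direction (95% interval -0.32 to 1.46, limma adjusted p = 0.266, exact permutation p = 0.3). These intervals are wide and leave room for differences as large as the change of *Jmjd1c* itself, so they do not show that the genes moved alike. The lower level was therefore not shown to be particular to *Jmjd1c*, and 0 of the 9 differences passed adjustment.

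**Figure D4:**
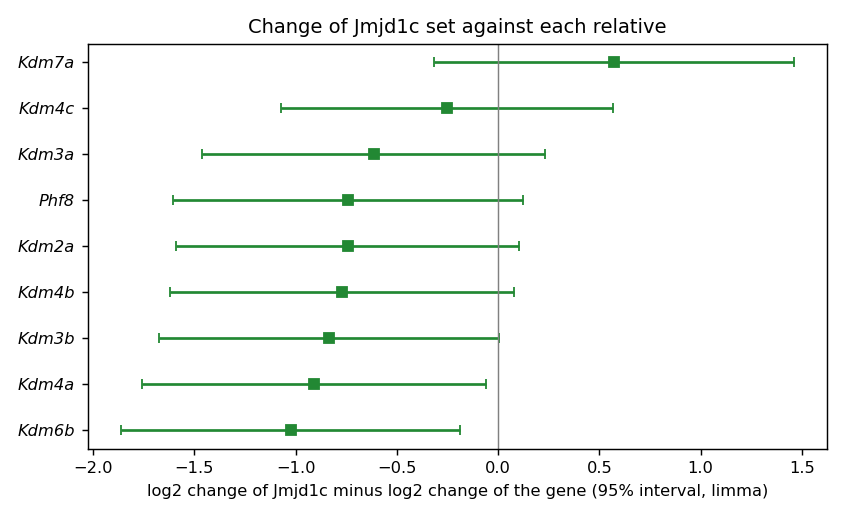
Log2 change of *Jmjd1c* minus the log2 change of each of the 9 other members (x axis, log2 scale), with 95% intervals from limma over 3 Sham and 3 SNI-NP libraries. The intervals for *Kdm6b* (-1.86 to -0.19) and *Kdm4a* (-1.76 to -0.06) lie below 0, and the point of *Kdm7a* (0.57) is the only one above 0.

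Of the 10 members, 6 had the same order over the SNI-NP rats, with replicate 1 highest, replicate 3 between and replicate 2 lowest. They were *Jmjd1c*, *Kdm4c* and *Kdm7a*, and also *Kdm3b*, *Kdm2a* and *Kdm6b*, whose levels were not lower in SNI-NP as a group. Over the 6 libraries the Pearson correlation of log2 CPM with *Jmjd1c* was 0.979 for *Kdm7a* and 0.958 for *Kdm4c*, 0.68 for *Kdm3a* and 0.61 for *Kdm2a*, and between -0.40 and 0.34 for the other 5 members. These points share the 2 groups and the depth of each library, and the correlations describe these 6 libraries only. The order was found in 3729 of the 14426 genes tested (25.8%). Of the 1175 genes tested with all SNI-NP rats below all Sham rats, 507 (43.1%) had it. SNI-NP replicate 2 had 7.74% of the genes tested at or below 50% of the Sham mean, against 4.04% in replicate 1 and 4.67% in replicate 3.

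The genes most like *Jmjd1c* over the 6 libraries, among 9434 with a mean of at least 10 CPM, were no histone demethylases. *Cert1*, a ceramide transfer protein, had a correlation of 0.999 and was at 62.4, 68.7 and 57.8 CPM in Sham and at 52.3, 23.7 and 37.3 CPM in SNI-NP. *Cul3*, the scaffold of a family of ubiquitin ligases, had a correlation of 0.997 and was at 87.8, 99.2 and 89.1 CPM in Sham and at 82.2, 37.5 and 58.8 CPM in SNI-NP. Their log2 fold changes were -0.74 and -0.63, past the unadjusted but not the adjusted edgeR threshold (adjusted p = 0.436 and adjusted p = 0.445). *Osbpl8*, *Pcmtd1* and *Acbd5* followed with correlations of 0.997 and log2 fold changes of -0.93, -0.88 and -0.70. In all, 320 of the 9434 genes (3.39%) had a correlation of at least 0.95. Of these, 131 were lower in SNI-NP rats at the unadjusted edgeR threshold, against 5.94% of all 14426 genes tested. The 320 genes, *Cert1* and *Cul3* among them, were picked for following *Jmjd1c* over the same 6 libraries, in which *Jmjd1c* was lower in SNI-NP rats. Their lower levels follow in large part from that choice and are not separate evidence of a shared change.

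**Figure D5:**
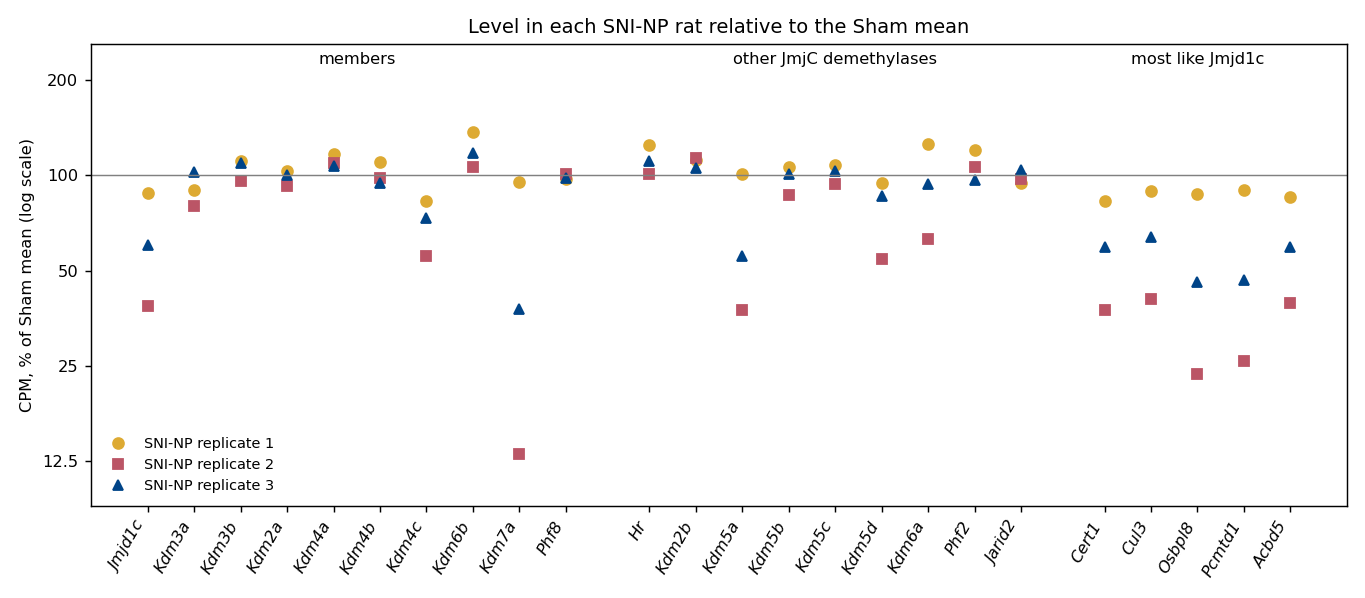
CPM in each SNI-NP library as a percent of the Sham mean (y axis, log scale), 1 point per library. Shown are the 10 members, 9 other JmjC demethylases and the 5 genes most like *Jmjd1c*. For *Jmjd1c* the points of replicates 1, 2 and 3 lie at 87.7%, 38.5% and 60.2%, an order (replicate 1, then 3, then 2) that is also seen in *Kdm4c*, *Kdm7a* and the 5 most similar genes, in *Kdm3b*, *Kdm2a* and *Kdm6b* near or above 100%, and in 6 of the 9 other demethylases, while *Phf8* stays between 97.4% and 100.7%.

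Gene length moved with the change. By the length that count and FPKM imply, *Jmjd1c* (8370 bases) was longer than 98.5% of the genes tested, and the longest length decile, from 4890 to 24201 bases, had a median log2 fold change of -0.08, with 12.4% of its genes lower and 3.95% higher at an unadjusted edgeR p under 0.05. In SNI-NP replicate 2 the median log2 deviation of this decile from the Sham mean was -0.16, in replicate 3 -0.05 and in replicate 1 0.02. *Kdm3b*, *Kdm2a* and *Phf8* belong to the same decile and had log2 fold changes of 0.08, -0.02 and -0.02, while *Kdm4c* and *Kdm7a*, with 2537 and 2612 bases, lie near the middle of the length range. With offsets for gene length the log2 fold change of *Jmjd1c* was -0.49 and still passed the unadjusted edgeR threshold. *Kdm3b*, *Kdm4a* and *Kdm6b* were then higher at the unadjusted threshold, with values of 0.28, 0.28 and 0.37. In that fit 1302 of the 14426 genes tested were higher and 707 lower at this threshold, against 708 and 857 without offsets.

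Of the other JmjC demethylases, 11 were listed, 10 had a row in the table and 9 were tested, and 0 passed the unadjusted threshold. For this and every other gene list, the share over all genes tested was 5.94% lower and 4.91% higher at that threshold. *Kdm5a*, which removes methyl groups from H3K4, came closest. It was at 36.6, 37.6 and 36.3 CPM in Sham and at 37.3, 13.8 and 20.5 CPM in SNI-NP, with a log2 fold change of -0.63 (SE 0.32, edgeR adjusted p = 0.503). As for *Kdm7a*, SNI-NP replicate 1 was level with the Sham rats and the other two lay far below. Of 10 other JmjC proteins, 1 passed. *Jmjd8*, a JmjC protein of the endoplasmic reticulum, was at 58.2, 60.6 and 55.8 CPM in Sham and at 75.0, 68.5 and 69.4 CPM in SNI-NP, higher by 0.29 on the log2 scale (SE 0.09, edgeR unadjusted p = 0.0161, adjusted p = 0.436). *Jmjd8* missed the unadjusted threshold without Sham replicate 1 (0.27), Sham replicate 3 (0.23), SNI-NP replicate 1 (0.24) or SNI-NP replicate 3 (0.26). Of the 4 tested genes of the flavin-dependent demethylases and their corepressors, 0 passed, and *Kdm1b*, an H3K4 demethylase, had the smallest p (log2 fold change -0.18, edgeR adjusted p = 0.693).

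On the side of the proteins that write or read H3K9 methylation, 0 of 7 genes for methyltransferases and a partner protein passed the unadjusted threshold. Nearest to it was that partner, *Wiz* of the G9a complex (0.17, edgeR adjusted p = 0.561). Of the 9 tested genes for readers of this mark and associated proteins, 1 was lower and 1 higher. *Mphosph8*, a chromodomain protein of the HUSH silencing complex, was at 18.6, 16.7 and 19.7 CPM in Sham and at 10.2, 2.44 and 7.71 CPM in SNI-NP. All SNI-NP rats were below the Sham rats, and the log2 fold change was -1.43 (SE 0.44, edgeR unadjusted p = 0.0131, adjusted p = 0.423). *Mphosph8* passed the unadjusted threshold in all 16 alternatives, between -1.85 and -1.03, where *Jmjd1c* passed in 12. *Uhrf1*, which binds methylated H3K9 and is needed to maintain DNA methylation in dividing cells, was at 3.84, 3.94 and 5.65 CPM in Sham and at 15.5, 5.94 and 7.13 CPM in SNI-NP. Here SNI-NP replicate 1 was the highest, and the log2 fold change was 1.09 (SE 0.39, edgeR unadjusted p = 0.0255, adjusted p = 0.436). Without that rat it was 0.55 and did not pass, nor did it without Sham replicate 1 (0.97) or Sham replicate 2 (0.999). *Atrx*, a chromatin remodeller that reads the mark and is named here after its values were seen, was at 23.0, 23.8 and 19.3 CPM in Sham and at 21.4, 2.89 and 3.07 CPM in SNI-NP. It did not pass (-1.27, SE 0.72, edgeR adjusted p = 0.531), with SNI-NP replicate 1 level with the Sham rats and replicates 2 and 3 far below. The symbol *Atrx* had 2 rows, and only the row with the most counts was used.

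Of the 10 genes of the H3K27 methyltransferase complex, 1 was lower. *Suz12*, a core subunit, was at 8.10, 7.15 and 6.58 CPM in Sham and at 5.52, 2.39 and 4.29 CPM in SNI-NP, a log2 fold change of -0.84 (SE 0.31, edgeR unadjusted p = 0.0286, adjusted p = 0.436), which missed the threshold without Sham replicate 1 (-0.78) or Sham replicate 2 (-0.85). All SNI-NP rats were again below all Sham rats, with replicate 2 the lowest. The 5 H3K36 methyltransferase genes all had log2 fold changes below 0, with a median of -0.30, and 0 passed. Among all 14426 genes tested, 7085 were below 0. The 5 genes are long, from 4592 bases (*Nsd3*) to 10663 bases (*Ash1l*). *Nsd1* had the smallest p among them (-0.30, edgeR adjusted p = 0.496), and its log2 fold change was -0.05 with offsets for gene length. *Ash1l* and *Setd2*, named after their values were seen, were at 21.8 and 13.3 CPM in SNI-NP replicate 2 and at 87.4 and 46.5 CPM in replicate 1, where the Sham rats were at 83.5 to 95.1 and 41.1 to 44.6 CPM.

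The 3 TET genes, dioxygenases that oxidise methylated cytosine with the same cofactors, did not pass, with *Tet2* nearest to the threshold (-0.46, edgeR adjusted p = 0.611). Of 8 tested genes that supply or use up 2-oxoglutarate, 0 passed, and *Idh2*, the mitochondrial isocitrate dehydrogenase that makes it, came closest (0.27, edgeR adjusted p = 0.478). Of 16 genes of oxygen sensing and hypoxia response, 1 was lower and 1 higher. The angiogenic factor *Vegfa* was at 21.1, 19.1 and 19.8 CPM in Sham and 14.7, 16.1 and 17.8 CPM in SNI-NP (-0.31, SE 0.13, edgeR unadjusted p = 0.0476, adjusted p = 0.456), and passed in 4 of 16 alternatives, among the fits with 1 library left out only in that without SNI-NP replicate 3 (-0.41). *Ndrg1*, also needed for peripheral myelin, was at 2378, 2442 and 2122 CPM in Sham and at 3240, 2538 and 2926 CPM in SNI-NP (0.33, SE 0.13, edgeR unadjusted p = 0.0430, adjusted p = 0.446), and missed the threshold without Sham replicate 1 (0.32), Sham replicate 3 (0.24), SNI-NP replicate 1 (0.24) or SNI-NP replicate 3 (0.28).

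The study places *Jmjd1c* between the transcription factor *Klf15* and the cytokine signalling inhibitor *Socs3*. None of the genes of this axis described here passed the unadjusted edgeR threshold. The paper describes picking *Socs3* from its RNA-seq data as a gene down-regulated in the NP rats. The counts used here did not show lower *Socs3* (values below). The paper also reports lower *Socs3* in SNI-NP rats by qPCR and immunofluorescence, assays that were not examined here. For *Klf15* it proposes reduced recruitment to an enhancer of *Jmjd1c*, which RNA levels do not measure. *Klf15* was at 23.7, 33.2 and 28.3 CPM in Sham and at 28.1, 21.8 and 31.2 CPM in SNI-NP, with a log2 fold change of -0.07 (SE 0.18, edgeR adjusted p = 0.905). Its groups overlapped, although SNI-NP replicate 2 was lowest here too. *Socs3* was low throughout, at 2.46, 2.99 and 3.90 CPM in Sham and at 2.53, 3.50 and 3.42 CPM in SNI-NP, with a log2 fold change of 0.02 (SE 0.28, edgeR adjusted p = 0.988). The log2 fold change was -0.35 for the kinase *Jak2*, 0.11 for *Stat3* and 0.57 for the cytokine gene *Il1b*, with edgeR adjusted p-values of 0.531, 0.8 and 0.521. The cytokine gene *Il6* had 1 to 6 counts per library and was not tested, and *Tnf* was listed at 0 in all 6 libraries. For the proteins of *Il1b*, *Il6* and *Tnf* the paper reports higher levels by ELISA in spinal cord of SNI-NP rats, which were not examined here.

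The genes on either side of *Jmjd1c* in the RefSeq order, *Nrbf2* and *Reep3*, did not pass the test. *Nrbf2*, an autophagy gene, had a log2 fold change of -0.02 (SE 0.16, edgeR adjusted p = 0.973) and *Reep3*, an endoplasmic reticulum protein, one of -0.15 (SE 0.18, edgeR adjusted p = 0.756). *Reep3* was at 144.1, 146.0 and 108.4 CPM in Sham and at 133.3, 94.6 and 130.5 CPM in SNI-NP, with SNI-NP replicate 2 the lowest of the 6 libraries. Neither neighbour separated the groups.

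Among the marker lists, 3 of 10 neuron genes (*Snap25*, *Map2* and *Slc17a6*) and 1 of 7 astrocyte genes (*Slc1a2*) were lower at the unadjusted edgeR threshold. Of 7 oligodendrocyte genes, 0 passed. Over all genes tested, 5.94% were lower and 4.91% higher at this threshold. Log2 fold changes were below 0 in 9 of 10 neuron genes (median -0.52), 6 of 7 astrocyte genes and 5 of 7 oligodendrocyte genes. Among all 14426 genes tested, 7085 were below 0. Summed neuron markers were at 1370 to 2150 CPM in Sham and 1184, 2023 and 1682 CPM in SNI-NP replicates 1, 2 and 3, where *Tubb3* alone gave 516, 1516 and 1188 CPM. The other 9 neuron markers summed to 548 to 1173 CPM in Sham and to 669, 506 and 494 CPM in SNI-NP. Erythroid genes were higher, 3 of 4 tested, with sums of 319 to 691 CPM in Sham and 682 to 1530 CPM in SNI-NP. The list of granulocytes had 1 of 6 genes higher, that of skeletal muscle 1 of 6, that of meninges and fibroblasts 1 of 5, that of Schwann cells and peripheral myelin 1 of 7 and that of endothelium 0 of 4. The part of these cells in the values of *Jmjd1c*, *Kdm4c* and *Kdm7a* was not tested.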

How the data were processed

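RNA-seq of 3 Sham and 3 SNI-NP libraries was analysed, with groups from the labels. For each gene the authors deposited an estimated count, not normalized, and an FPKM value, which they scaled by gene length and library total. Reads were mapped to the genome they call Rat6 and unique sequences were kept. The submitters' processing notes name FastQC, STAR and HTSeq. Annotation release and strand setting are not given in the sources used here, although 5.97% to 6.29% of the counts in a library were not whole numbers, 0 of them for members. Columns of the authors' annotation were not used.

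Where a symbol had several rows, the row with the most counts was taken. Counts were rounded, filtered with filterByExpr, scaled by TMM and tested with edgeR version 4.0.16 (quasi-likelihood, two-sided, condition as the only term) in R version 4.3.3, with Benjamini-Hochberg adjustment over 14426 genes. The ratio of each gene to *Jmjd1c* was tested with limma version 3.58.1 on log2 CPM (prior count 2) and by exact permutation. Gene length was taken from count, total and FPKM. Depth was 16670760 to 18151156 counts, and 3 counts were taken as the floor. Labels do not say more of the replicates than their number, so p-values measure the spread between these libraries.

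Alternatives were DESeq2 version 1.42.0, RLE and upper-quartile factors, no filter, a minimum of 10 counts in every library, the replicate number as a block, loess length offsets (span 0.5), limma on log2 FPKM (pseudocount 0.1) and leaving out each library. The scripts were tested on simulated data. Members and lists were chosen with earlier results of these data known. Named are all members, the genes of each pathway list with unadjusted p under 0.05 (otherwise the 1 with the smallest p), the genes of the study's axis (not all are reported here) and the neighbours of *Jmjd1c*, and the 5 genes most correlated with *Jmjd1c*. The counts were not corrected for GC content, as no genome was used with them. Promoter windows came from a RefSeq table.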

Additional observations from a re-analysis of the deposited data

How the results depend on the processing

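The log2 fold change of *Jmjd1c* was below 0 in all 16 alternatives and its unadjusted p under 0.05 in 12 of them. It ranged from -1.02 to -0.43 over the 6 fits with 1 library fewer and passed in 2, leaving out Sham replicate 3 (-0.77) or SNI-NP replicate 1 (-1.02). It missed the threshold without Sham replicate 1 (-0.72), Sham replicate 2 (-0.63), SNI-NP replicate 2 (-0.43) and SNI-NP replicate 3 (-0.71). The number of members past the unadjusted threshold was 2, and 0 to 3 when a library was left out (0 without Sham replicate 2 or SNI-NP replicate 3, 1 without Sham replicate 1 or SNI-NP replicate 2), and 5 with length offsets. With those offsets 2009 of the 14426 genes tested passed, against 1565 without them. The deviations of same-numbered libraries correlated at 0.214, -0.143 and 0.0538. These values gave no sign of pairing by number, but so few libraries cannot exclude it. With the replicate number as a block the log2 fold change of *Jmjd1c* was -0.76 and 1 member passed.

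Counts of genes depended on single libraries. At the unadjusted threshold 1565 genes passed, and 908 to 2134 when a library was left out (908 without Sham replicate 1, 1019 without Sham replicate 3, 917 without SNI-NP replicate 3). The split was 857 lower and 708 higher, and 707 lower and 1302 higher with length offsets. After adjustment 0 genes passed by edgeR, 0 to 222 when a library was left out (222 without SNI-NP replicate 1, 2 without Sham replicate 2), 210 by DESeq2, 2 by limma on log2 FPKM and 208 with the ganglion marker covariate, which was chosen after seeing the data. Genes without overlap numbered 2670, and 3632 to 5259 when a library was left out, where fewer libraries make separation easier. The members that differed from *Jmjd1c* numbered 2, and 0 to 8 when a library was left out (8 without SNI-NP replicate 1). The share of *Jmjd1c* in the KDM3 sum differed by -7.60 percentage points, and by -10.0 to -5.62 when a library was left out.

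Among the members, signs turned for those near 0: *Kdm2a* (0.20 with length offsets, also with the block, 0.01 without Sham replicate 2, 0.028 without SNI-NP replicate 2, from -0.093 to 0.028 with any 1 library left out), *Phf8* (0.17 with length offsets, 0.16 with the block added), *Kdm4b* (-0.0017, -0.046 and -0.054 without Sham replicate 2, Sham replicate 3 and SNI-NP replicate 1, up to 0.038 in the other such fits, -0.096 by limma on FPKM, -0.019 with the covariate) and *Kdm3b* (-0.0069 without Sham replicate 3, up to 0.14 without SNI-NP replicate 2). Of the other named genes, signs turned for *Socs3* (-0.14 without Sham replicate 1, -0.0079 without Sham replicate 2, -0.066 without SNI-NP replicate 2, -0.078 without SNI-NP replicate 3, up to 0.18 in the other such fits, -0.016 by limma on FPKM), *Klf15* (0.057 without Sham replicate 2, 0.064 without SNI-NP replicate 2, down to -0.23), *Nrbf2* (0.11 without SNI-NP replicate 1, down to -0.12, 0.027 with the covariate) and *Stat3* (-0.0038 without Sham replicate 1, up to 0.22). Of the 6 pathway genes past the unadjusted threshold, *Mphosph8* passed in 16 of 16 alternatives, *Suz12* in 14, *Uhrf1* in 13, *Jmjd8* in 12, *Ndrg1* in 8 and *Vegfa* in 4. *Kdm7a* passed without SNI-NP replicate 1 (-1.97) and with the covariate (-1.63), and had no value under the minimum of 10 counts in every library. The cause of these shifts was not tested. Depth limits *Kdm7a* most, with 8 counts in SNI-NP replicate 2.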
